A study of Homo sapiens with 12 samples.

Results

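The inter-alpha-trypsin inhibitor genes were followed across 12 Affymetrix arrays of HepG2, an established liver cancer line that still makes many plasma proteins of hepatocytes. The set was ITIH1 and ITIH3, with ITIH2, ITIH4 and AMBP wherever the platform's annotation names them. It names 4 of the 5, ITIH1, ITIH2, ITIH3 and AMBP, with 1 probe set each, among 14884 named genes. ITIH4 was not analysed here. ITIH1 and ITIH3 were chosen by their measured changes in these same arrays, ITIH1 for its rise after loss of the truncated form of β-catenin and ITIH3 for its fall after loss of the full-length form. Their values are therefore a description and carry no test, while ITIH2 and AMBP entered by family and were tested.

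Inter-alpha-trypsin inhibitors are plasma proteins made mainly by hepatocytes. Heavy chains, encoded by the ITIH genes, are joined through a chondroitin sulfate chain to bikunin, a small protease inhibitor that is cut from the AMBP precursor together with alpha-1-microglobulin. In tissues the enzyme TSG-6, encoded by TNFAIP6, moves heavy chains from chondroitin sulfate onto hyaluronan, which strengthens the hyaluronan matrix. The ITIH4 product is an acute phase protein that is not held by such a chain.

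All cells carried the HepG2 genotype, in which one CTNNB1 allele has a deletion that takes in exon 3 sequence. A truncated β-catenin without its degradation sites is therefore present beside the full-length protein. β-catenin is a junction protein and the effector of Wnt signalling. The cells received a control siRNA (siCtrl), an siRNA against the full-length form (sißCat-WT), against the truncated form (sißCat-mut) or against both (sißCat-both), and RNA was taken at 120 h from 3 samples per group. The labels call the samples triplicates without naming separate cultures, so errors and p-values here cover the variation among these samples alone, possibly technical, and HepG2 is a single line. The values are log2 intensities, with a precision limited by the number of arrays. Array medians over all probe sets ranged from 4.71 to 4.78, and across genes r was 0.994 to 0.997 between replicate arrays. The targeted gene was not analysed here, so the groups rest on their labels. Of 18 hepatocyte genes 15 were measured, and in each group 15 stood above the 75th percentile of probe sets. The endothelial and the stellate or fibroblast lists had 0 members above it, of 7 and 4 measured. Of the cholangiocyte markers 5 or 6 of 7 stood above it, depending on the group, and of the immune markers 2 of 6, LYZ (12.72 after siCtrl) and CD68 (10.03). In RNA from whole cultures, fewer cells of a type and less RNA per cell cannot be told apart.

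The 250 bases before the transcription start are shown for ITIH3 and AMBP, since ITIH3 moved in all 3 knockdowns and AMBP in those that reach the truncated form. The sequences are from RefSeq on GRCh38.p14, with chr3:52794546-52794795 on the plus strand for ITIH3 and chr9:114078301-114078550 on the minus strand for AMBP, each read 5′ to 3′ towards the gene. Capitals mark the letters TATAA.
ITIH3: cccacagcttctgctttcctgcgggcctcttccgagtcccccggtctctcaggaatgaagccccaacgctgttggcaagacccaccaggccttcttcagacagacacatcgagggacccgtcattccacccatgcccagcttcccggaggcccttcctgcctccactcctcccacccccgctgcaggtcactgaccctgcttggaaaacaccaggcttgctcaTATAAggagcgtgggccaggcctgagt
AMBP: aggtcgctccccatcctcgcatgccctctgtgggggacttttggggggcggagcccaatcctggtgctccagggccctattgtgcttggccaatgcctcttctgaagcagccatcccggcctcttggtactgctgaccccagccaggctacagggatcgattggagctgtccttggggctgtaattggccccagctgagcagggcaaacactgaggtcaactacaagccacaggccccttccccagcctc
The letters TATAA began 27 bases before the ITIH3 start and were absent on both strands of the AMBP window. This motif was added after the ITIH3 window had been read, and 18.9% of 35116 windows of the same length hold it on either strand. The other motifs searched on both strands were ATCAAAG for TCF and LEF factors, GTTAAT for HNF1, CAAAGTCCA for HNF4, TGTTTAC for FOXA and AGATAA for GATA factors. ATCAAAG and CAAAGTCCA can share bases where they meet, and no motif is contained in another. Each had 0 matches in the ITIH3 and AMBP windows, beside 2.26%, 6.23%, 0.325%, 2.98% and 9.17% of all windows. The table holds 3 windows for ITIH1, all at starts within the gene, and of the 6 motifs they held AGATAA alone, in the 2 overlapping ones. ITIH2 is not listed.

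ITIH1, whose product is a heavy chain of inter-alpha-trypsin inhibitor, was about 4-fold higher whenever the truncated form was targeted and close to control when the full-length form alone was. Its levels were 5.58, 5.82 and 5.71 after siCtrl and 5.78, 5.42 and 5.43 after sißCat-WT. They were 7.77, 7.76 and 7.59 after sißCat-mut and 7.75, 7.72 and 7.64 after sißCat-both. All 6 arrays of the last pair of groups were above all 6 of the first pair, and within each pair the arrays overlapped. How many of all genes separate in this way was not counted, so the separation of arrays is a description, here and for the other members. The log2 change from siCtrl was 2.01 ± 0.10 after sißCat-mut (4.02-fold) and 2.0 ± 0.10 after sißCat-both (4.01-fold), where ± is the standard error of the fit with n = 3 arrays per group. After sißCat-WT it was -0.16 ± 0.10, smaller than the SD of 0.21 among the sißCat-WT arrays. It was -0.28 without sißCat-WT replicate 1 and -0.10 without siCtrl replicate 2 or sißCat-WT replicate 2 or 3. Sorted by change, ITIH1 was 22nd from the top of 14884 genes after sißCat-mut and 49th after sißCat-both. Its control mean of 5.70 was at the 64.7th percentile of probe sets, and how far RMA compresses changes at that level was not tested.

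Of the 4 measured members, ITIH3, the heavy chain of pre-alpha-inhibitor, was the one whose arrays overlapped between no groups. ITIH3 was chosen for its fall after sißCat-WT, so its differences are described and not tested. It stood at 8.88, 8.66 and 8.76 after siCtrl and at 8.06, 7.97 and 8.08 after sißCat-WT. It reached 10.54, 10.70 and 10.59 after sißCat-mut and 10.17, 10.33 and 10.24 after sißCat-both. The order was sißCat-WT, siCtrl, sißCat-both, sißCat-mut from low to high, and no neighbouring groups in that order overlapped. Against siCtrl the log2 change was -0.73 ± 0.08 after sißCat-WT (1.66-fold lower), 1.84 ± 0.08 after sißCat-mut (3.58-fold higher) and 1.48 ± 0.08 after sißCat-both (2.79-fold higher). ITIH3 was 104th from the bottom after sißCat-WT and 29th from the top after sißCat-mut. The gap between sißCat-both and sißCat-mut was -0.36 ± 0.08, and that between sißCat-mut and sißCat-WT was 2.57 ± 0.08 (5.94-fold).

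The gap between ITIH1 and ITIH3 differed with the knockdown. Taking both genes' changes from their siCtrl means on the same array, the change of ITIH1 minus that of ITIH3 was 0.41 to 0.79 on the log2 scale after sißCat-WT, 0.07 to 0.30 after sißCat-mut and 0.46 to 0.64 after sißCat-both. The siCtrl arrays themselves ran from -0.23 to 0.22 on this measure, so the sißCat-mut values overlapped theirs and those of the other knockdowns did not. All 3 ranges share the siCtrl means, and ITIH3 had been chosen for its fall after sißCat-WT. The departure from additivity, sißCat-both minus both single knockdowns plus siCtrl, was 0.16 ± 0.15 for ITIH1 and 0.37 ± 0.11 for ITIH3. The ITIH1 value was 0.27 without sißCat-WT replicate 1 and 0.09 to 0.10 without siCtrl replicate 2, sißCat-WT replicate 2 or 3 or sißCat-mut replicate 3.

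**Figure D1:**
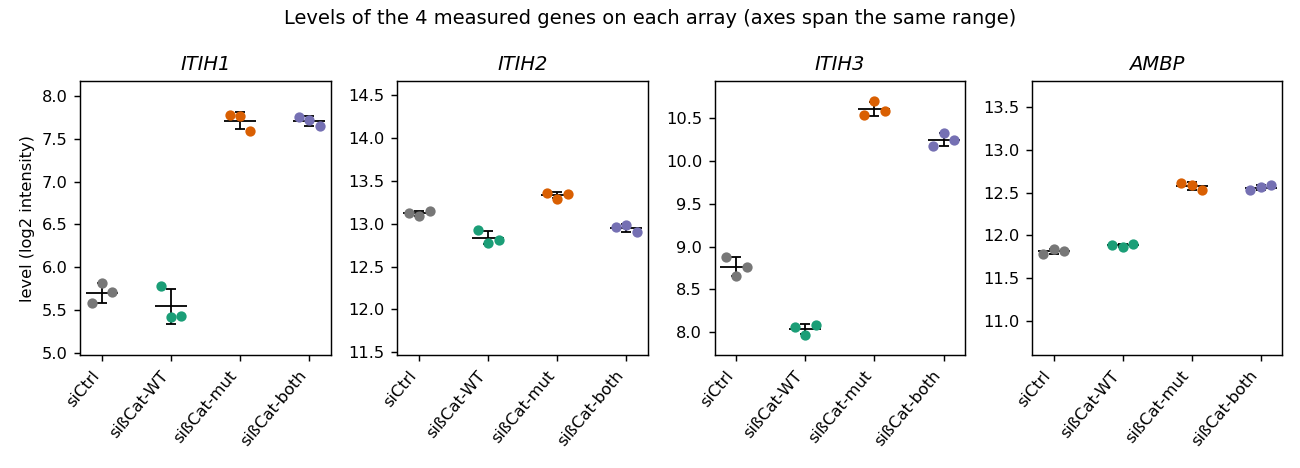
Level on each array (log2 intensity, points) by siRNA group for the 4 measured genes, with the mean and SD of 3 arrays in black; the axes differ in position and span the same range. ITIH1, ITIH3 and AMBP lie above control in both groups in which the truncated form was targeted, and ITIH2 moves least.

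ITIH2, which encodes the second heavy chain of inter-alpha-trypsin inhibitor, showed small differences around a very high level. It stood at 13.12, 13.09 and 13.15 after siCtrl, 12.92, 12.78 and 12.82 after sißCat-WT, 13.36, 13.29 and 13.34 after sißCat-mut, and 12.96, 12.99 and 12.90 after sißCat-both. The control arrays lay between those of sißCat-mut above and those of sißCat-both and sißCat-WT below, without overlap. These levels were at or above the 99.8th percentile of probe sets, and whether the array compresses differences there was not tested.

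ITIH2 fell after sißCat-WT by 0.28 ± 0.07 on the log2 scale (limma adjusted p = 0.0159), in a comparison in which 10.2% of all genes were called, 5.2% higher and 4.97% lower. It rose after sißCat-mut by 0.21 ± 0.07 (adjusted p = 0.0323), where 25.6% of all genes were called, 12% higher and 13.6% lower. Both calls lie close to the threshold, and dropping single arrays ended them while the change stayed similar. The first ended without siCtrl replicate 1 (-0.28, adjusted p = 0.0511), siCtrl replicate 3 (-0.27, 0.0634), sißCat-WT replicate 2 (-0.25, 0.0781) or sißCat-WT replicate 3 (-0.27, 0.061). The second, at 0.20 to 0.23 with any 1 array left out, ended without siCtrl replicate 1, 2 or 3 (adjusted p = 0.0797, 0.105 and 0.0609) or sißCat-mut replicate 1, 2 or 3 (0.0926, 0.0507 and 0.0795), and with the arrays centred on their medians (0.18, adjusted p = 0.0712).

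After sißCat-both the ITIH2 change was -0.17 ± 0.07 and was not called (adjusted p = 0.0693), while 33.6% of all genes were called, 15.5% higher and 18.1% lower. It was called with median centring (-0.20, adjusted p = 0.0428), without dim genes (adjusted p = 0.0342) and with a trended and robust prior (0.00462). Between the knockdowns, ITIH2 was higher after sißCat-mut than after sißCat-WT by 0.49 ± 0.07 (adjusted p = 6.45e-05), where 31% of genes were called. It was lower after sißCat-both than after sißCat-mut, with a difference of -0.38 ± 0.07 (adjusted p = 0.00104), where 22.2% were called. Against sißCat-WT the sißCat-both level differed by 0.11 ± 0.07 (adjusted p = 0.231, 95% interval -0.03 to 0.26), where 36.2% of genes were called.

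AMBP, the bikunin gene, rose when the truncated form was targeted, alone or with the full-length form. Its levels were 11.78, 11.84 and 11.82 after siCtrl and 11.88, 11.87 and 11.90 after sißCat-WT, and 12.62, 12.59 and 12.53 after sißCat-mut and 12.53, 12.56 and 12.59 after sißCat-both. The 6 arrays with the truncated form targeted lay above the other 6. AMBP rose by 0.76 ± 0.06 after sißCat-mut (1.70-fold, limma adjusted p = 1.36e-06), where 25.6% of all genes were called, 12% higher. It rose by 0.74 ± 0.06 after sißCat-both (1.67-fold, adjusted p = 9.21e-07), where 33.6% of all genes were called, 15.5% higher. Sorted by change, AMBP was 328th from the top of 14884 genes after sißCat-mut and 530th after sißCat-both. After sißCat-WT its change of 0.07 ± 0.06 was not called (adjusted p = 0.609, 95% interval -0.07 to 0.21), although the arrays did not overlap with those of siCtrl. The sißCat-both and sißCat-mut levels differed by -0.02 ± 0.06 (adjusted p = 0.874, 95% interval -0.16 to 0.12). AMBP was 0.69 ± 0.06 higher after sißCat-mut than after sißCat-WT (adjusted p = 1.75e-06), where 31% of genes were called.

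Neither tested gene departed from additivity by the test. The value was -0.10 ± 0.09 for ITIH2 (adjusted p = 0.568, 95% interval -0.30 to 0.11) and -0.09 ± 0.09 for AMBP (adjusted p = 0.583, 95% interval -0.28 to 0.10), where 16.4% of all genes were called.

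**Figure D2:**
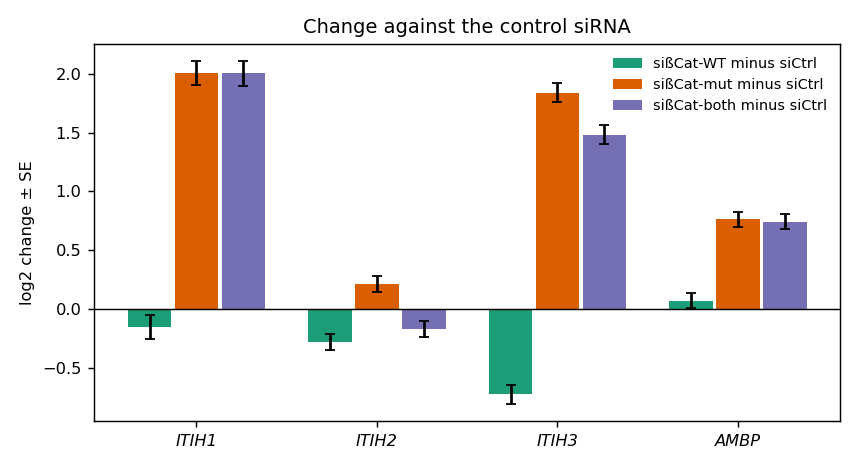
Log2 change from siCtrl (bars, with the standard error of the fit) after each knockdown for the 4 measured genes; the 3 comparisons share the control arrays. ITIH1 and ITIH3 show the tallest bars after sißCat-mut, at 2.01 and 1.84, and ITIH2 changes sign between sißCat-mut (0.21) and sißCat-both (-0.17, not called).

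The members of the set did not share 1 profile. The root mean square difference over the 12 arrays, after each gene's own mean is removed, was 0.28 between ITIH1 and ITIH3, which lie side by side on chromosome 3, and ITIH3 was 7th in the order of likeness to ITIH1 among 14883 genes. AMBP, on chromosome 9, was 330th in the order for ITIH1 and 364th in that for ITIH3, with differences of 0.70 and 0.73. ITIH2, on chromosome 10, was 2843rd and 1994th, with differences of 0.98 and 0.95. The measure also reflects the size of a change, and ITIH2 had a small one. ITIH1 and ITIH3 had been chosen for changes in these same arrays, while AMBP and ITIH2 entered by family. This order is therefore a description, and its relation to chromosomal position was not tested.

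Uncharacterised and open reading frame symbols were left out of the lists of close genes, which skips the 6th place for ITIH1 and the 8th for ITIH3. The 8 remaining genes closest to ITIH1 were FXYD1, ONECUT1, SHBG, PDZK1, FAT4, ITIH3, VTN and NCMAP, at differences of 0.20 to 0.29. FXYD1, a regulator of the sodium pump, had log2 changes of -0.01, 1.99 and 2.06 after sißCat-WT, sißCat-mut and sißCat-both. ONECUT1, a hepatocyte transcription factor also called HNF6, had 0.10, 1.80 and 2.15. FAT4, an atypical cadherin, had -0.16, 1.92 and 2.46, and PDZK1, a scaffold protein that binds the HDL receptor, -0.17, 1.57 and 1.63. This list depended on single arrays: 5 of the 8 were shared without sißCat-WT replicate 3, 4 without sißCat-mut replicate 1 and 5 without sißCat-both replicate 3.

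By the same rule the 8 closest to ITIH3 were SHBG, MASP1, TFR2, AQP7P3, MOGAT2, VTN, NCMAP and ITIH1, at 0.19 to 0.28. SHBG, the carrier of sex steroids in plasma, had log2 changes of -0.48, 1.95 and 1.55. MASP1, a serine protease of the lectin pathway of complement, had -0.84, 1.59 and 1.03, and VTN (vitronectin), an adhesive plasma protein, had -0.57, 1.33 and 1.40. TFR2, which senses iron-loaded transferrin, had -0.99, 1.32 and 1.20, and MOGAT2, an enzyme of triglyceride synthesis, -0.66, 1.38 and 1.25. AQP7P3 is a pseudogene copy of an aquaporin and may share signal with its relatives. SHBG, VTN and NCMAP were on both lists.

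**Figure D3:**
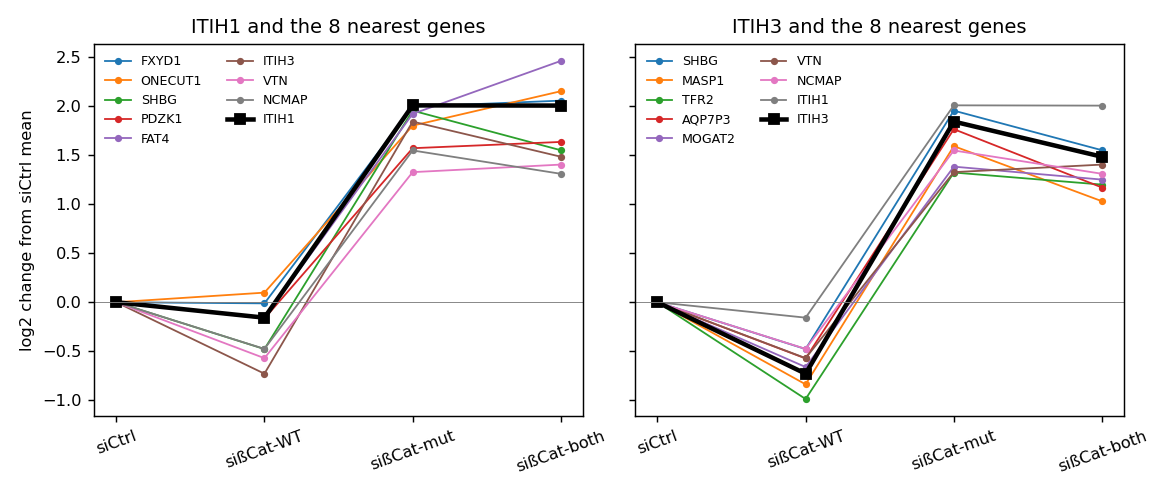
Log2 change from the siCtrl mean in each group for ITIH1 (left, black) and ITIH3 (right, black) and, in colour, the 8 genes with the smallest difference from each over 12 arrays, uncharacterised symbols left out. SHBG, VTN and NCMAP, in both panels, dip after sißCat-WT (-0.48, -0.57 and -0.48) before rising after sißCat-mut. Beside ITIH1, FXYD1 and ONECUT1 stay near 0 after sißCat-WT, PDZK1 and FAT4 are at -0.17 and -0.16, and ITIH3 is at -0.73. Beside ITIH3, MASP1, TFR2, AQP7P3 and MOGAT2 also dip, and ITIH1 is at -0.16.

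The measured genes nearest to ITIH1 and ITIH3 on chromosome 3 did not share their rise, though many of them lie far off. The 6 nearest measured genes on each side were NT5DC2, UQCC5, PBRM1, GLT8D1, SPCS1 and NEK4, and SFMBT1, TKT, DCP1A, CHDH, IL17RB and ACTR8, in RefSeq order. On the ITIH1 side they ran from 6.66 kb (NEK4) to 243 kb (NT5DC2) away. On the ITIH3 side SFMBT1 was 94.8 kb, TKT 416 kb and ACTR8 1050 kb away. ITIH4, which lies next to ITIH3, was not analysed here, so the closest surroundings of ITIH3 are not covered. After sißCat-mut 3 of the 12 were called, a share near the 25.6% of all genes: 1 rose, the interleukin receptor gene IL17RB by 0.43, and 2 fell, the glycosyltransferase gene GLT8D1 by 0.40 and the transketolase gene TKT by 0.73. After sißCat-both 3 of the 12 were called, beside 33.6% of all genes: the choline dehydrogenase gene CHDH rose by 0.60, and TKT and NT5DC2 fell by 1.12 and 0.54. NEK4, a kinase gene and the nearest measured one on the ITIH1 side, had log2 changes of 0.12 and 0.08 that were not called (limma adjusted p = 0.228 and 0.422).

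After sißCat-WT 4 of the 12 fell and 0 rose, beside 4.97% lower and 5.2% higher over all genes: the decapping factor gene DCP1A by 0.36, IL17RB by 0.30, the chromatin remodeller gene PBRM1 by 0.28 and NEK4 by 0.24. The median of the 12 was -0.24, beside 0.01 over all genes. That count was 1 without siCtrl replicate 2 or 3 or sißCat-WT replicate 2, and 2 without sißCat-WT replicate 1 or 3 or sißCat-mut replicate 2. SFMBT1, on the other side, had -0.23 after sißCat-WT (adjusted p = 0.156), 0.20 after sißCat-mut (0.14) and 0.15 after sißCat-both (0.239).

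**Figure D4:**
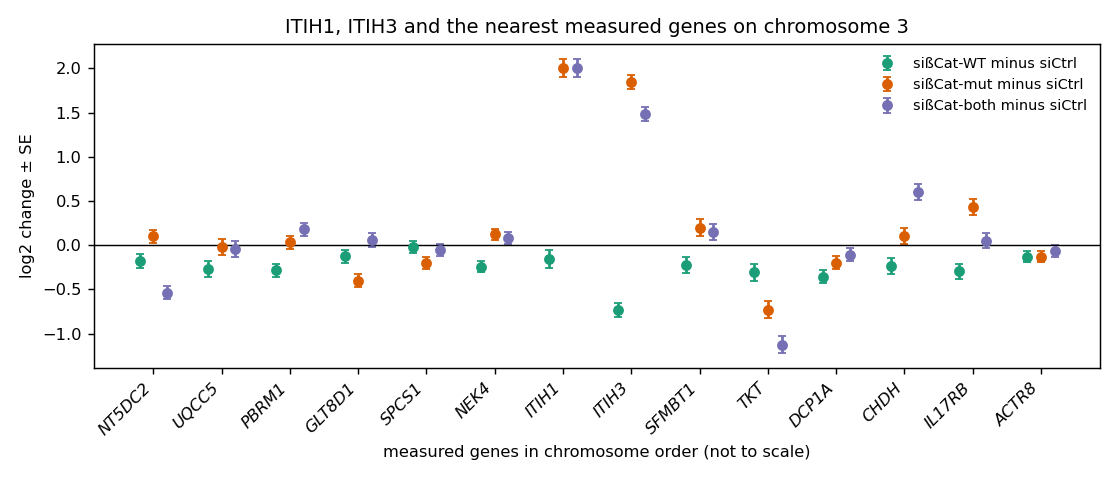
Log2 change from siCtrl with its standard error for ITIH1, ITIH3 and the 6 nearest measured genes on each side, in chromosome order and not to scale. After sißCat-mut ITIH1 and ITIH3 are at 2.01 and 1.84, and the largest rise among the other 12 is 0.43 (IL17RB).

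For genes of the hyaluronan matrix, onto which heavy chains are moved, the share called was near that over all genes after sißCat-mut and sißCat-both. Of 28 listed genes 21 were measured, and TNFAIP6 and PTX3, which encodes a matrix pentraxin that binds heavy chains, were not analysed here. After sißCat-mut 1 rose and 4 fell, beside 25.6% of all genes called, with a list median of -0.02. These 5 calls were 8 with the replicate block. The riser was HABP2, a plasma serine protease that binds hyaluronan, from 4.99 to 9.63 (a log2 change of 4.65 ± 0.19). The hyaluronan-degrading protein gene CEMIP fell by 2.74 from 8.80, HMMR, a hyaluronan receptor that also acts in mitosis, by 0.66, the hyaluronidase gene HYAL2 by 0.52, and HABP4, an intracellular RNA-binding protein gene, by 0.48. After sißCat-both 1 rose and 7 fell, beside 33.6% of all genes called, with a median of -0.08, and without dim genes the 8 calls were 5. HABP2 rose by 5.48, CEMIP fell by 3.65, HMMR by 1.15 and VCAN, the matrix proteoglycan versican, by 0.93.

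After sißCat-WT 5 hyaluronan genes rose and 1 fell, beside 10.2% of all genes called, with a median of 0.06. CEMIP2 and VCAN rose by 0.57 each, HMMR by 0.36 and the receptor gene LAYN by 0.32, HABP4 was the other riser, and HAPLN3, a link protein gene, fell by 0.38. The 6 calls were 1 without siCtrl replicate 1, 2 without siCtrl replicate 2 or 3, 3 without dim genes, and 0 without sißCat-WT replicate 3, where limma's test called none of them. Low levels limit part of this list: the hyaluronan synthase gene HAS2 stood between 3.34 and 3.67 in the 4 groups and the receptor gene CD44 between 3.25 and 3.36, under the array medians, and neither was called in any knockdown against siCtrl. With the mean of its 2 probe sets VCAN had changes of 0.33 after sißCat-WT and -0.54 after sißCat-both.

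The chondroitin sulfate chain that joins heavy chains to bikunin is built by glycosyltransferases and sulfotransferases, and members of this list were called in both directions, as were genes over the whole array. Of 30 listed genes 23 were measured. After sißCat-mut 3 rose and 5 fell, beside 12% and 13.6% of all genes, with a median of -0.01. CHST15, which adds a second sulfate to chondroitin, fell by 3.15, the sulfotransferase genes CHST3 and CHST14 fell by 0.93 and 0.84, and PAPSS2, which makes the sulfate donor, rose by 1.25. The chain polymerising genes CHPF and CHPF2 rose by 0.41 and 0.42 and CHSY1 fell by 0.42. After sißCat-both 3 rose and 8 fell, beside 15.5% and 18.1% of all genes, with a median of -0.03. CHST15 fell by 2.89, PAPSS1, the other sulfate donor enzyme gene, by 1.41, CHSY1 by 0.89, and PAPSS2 rose by 1.19. XYLT2, which starts the chain on the core protein, fell by 0.79.

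After sißCat-WT 3 chondroitin sulfate genes rose and 2 fell, beside 5.2% and 4.97% of all genes, with a median of 0.04. CSGALNACT2, which commits the chain to chondroitin, rose by 1.47 from 6.61, CHST3 by 0.68 and CHST14 by 0.38, while CHST15 fell by 0.73 and UGDH, which makes the sugar donor glucuronate, by 0.25. CHST3 and CHST14 were higher after sißCat-WT and lower after the other knockdowns.

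**Figure D5:**
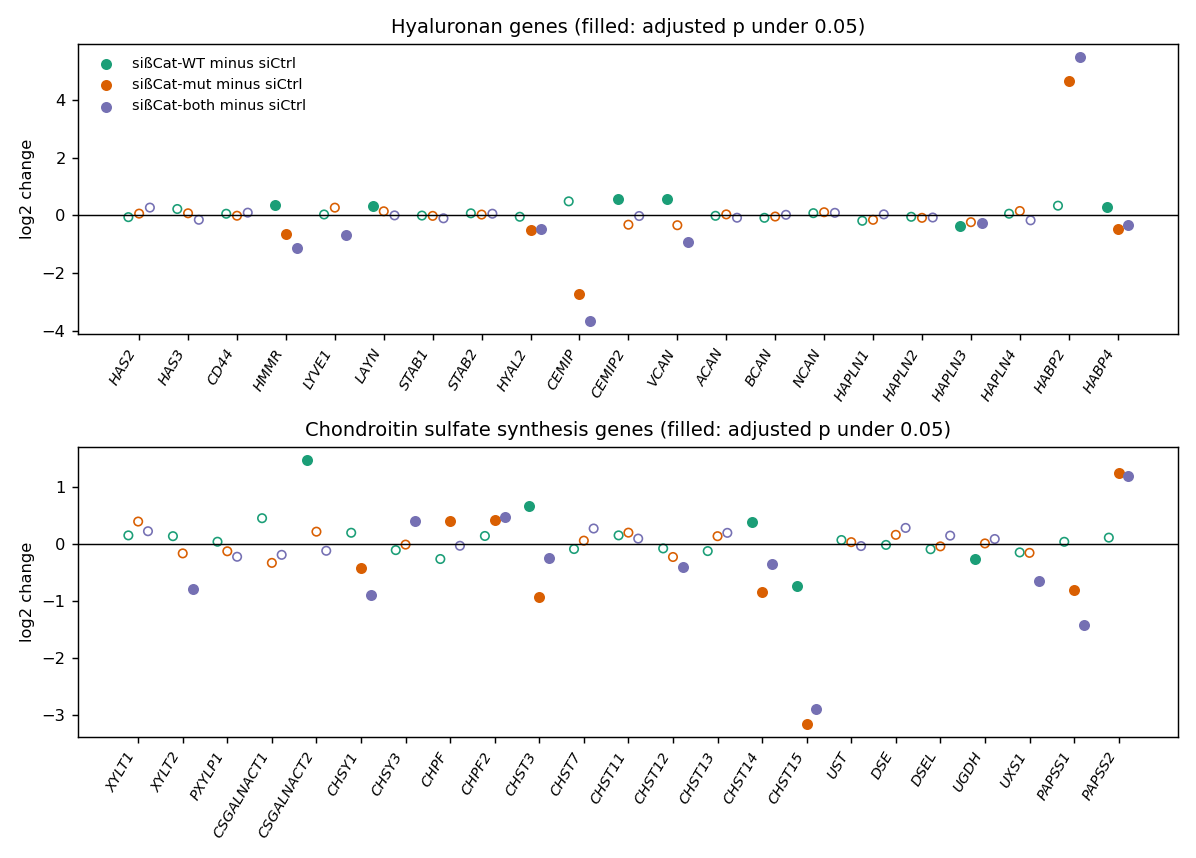
Log2 change from siCtrl after each knockdown for 21 hyaluronan genes (top) and 23 chondroitin sulfate synthesis genes (bottom); filled points passed an adjusted p under 0.05 and open points did not. HABP2 (up to 5.48), CEMIP (down to -3.65) and CHST15 (down to -3.15) lie far from the rest.

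Most measured genes on the list of other plasma protease inhibitors were called higher after sißCat-mut. That list was written with earlier results of these data known, so its counts are a description. Of 29 listed genes 10 were measured, of which 7 rose and 0 fell, beside 12% higher and 13.6% lower over all genes, with a median of 0.35. The rise was not particular to inhibitors: of 15 measured hepatocyte genes, which include AHSG of this list, 13 rose. The count of 7 inhibitor genes ranged from 5 to 7 with 1 array left out. APLP2, an amyloid precursor-like gene, was close to the threshold (0.23, limma adjusted p = 0.0498). The kininogen gene KNG1 rose by 3.88, FETUB (fetuin B) by 3.34, HRG (histidine-rich glycoprotein) by 1.32 and TFPI, which carries Kunitz domains like bikunin, by 0.59. When both KNG1 probe sets were averaged the rise was 2.02, so the other probe set changed far less than the one used. The broad inhibitor A2M (alpha-2-macroglobulin) rose by 0.45 after sißCat-mut and by 0.46 after sißCat-both. After sißCat-both 5 rose and 2 fell, beside 15.5% and 18.1% of all genes, with a median of 0.20. TFPI was among those that fell, by 0.44. After sißCat-WT, where 5.2% of all genes rose and 4.97% fell, 1 inhibitor gene rose, APLP2 by 0.34. In the same comparison 2 fell, FETUB by 0.54 and AHSG (fetuin A) by 0.42, and the list median was -0.09.

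Among transcription factors known from liver genes, and TCF and LEF factors, 7 of 23 were measured. After sißCat-mut 5 rose and 0 fell, beside 12% and 13.6% of all genes: ONECUT1 by 1.80, FOXA3 by 0.46, ONECUT2 by 0.45, FOXA1 by 0.40 and PROX1 by 0.26, with a median of 0.40. After sißCat-both 3 rose, beside 15.5% of all genes, ONECUT1 by 2.15 and PROX1 and ONECUT2 by 0.27 each. After sißCat-WT limma called 0 of the 7, and their changes ran from -0.14 for ONECUT2 to 0.23 for FOXA1. ONECUT1 had also been second in likeness to ITIH1.

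The list for interleukin-6 signalling, which drives the acute phase response of hepatocytes, had 12 of 17 genes measured. It is not confined to that pathway and also holds IL1RAP, NFKB1 and RELA. After sißCat-mut 4 rose and 1 fell, beside 25.6% of all genes called, with a median of 0.08. The risers were led by the interleukin-1 receptor subunit gene IL1RAP at 1.39 and the receptor gene IL6R at 1.02, with JAK2 at 0.60. The gene that fell was NFKB1, by 0.34. That count of 5 was 3 without siCtrl replicate 2 or 3 or sißCat-mut replicate 2. After sißCat-both 4 rose and 2 fell, beside 33.6% of all genes called, with a median of -0.02. IL1RAP was at 2.0, JAK2 at 0.86 and the oncostatin M receptor gene OSMR at -1.11. After sißCat-WT, where 10.2% of all genes were called, the list median was 0.145. There 2 rose, the kinase genes JAK1 by 0.61 and JAK2 by 0.33, and 1 fell, the receptor gene LIFR by 0.30. Of those 3 calls 1 was left without any 1 of siCtrl replicates 1 to 3, sißCat-WT replicates 2 and 3 or sißCat-mut replicates 1 to 3, with median centring and with only the groups compared. SOCS3, which the pathway induces and which inhibits it, was at -0.10, -0.25 and 0.22 after sißCat-mut, sißCat-both and sißCat-WT and was not called.

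Acute phase proteins themselves were measured for 17 of 24 genes. The list mixes genes that rise in the acute phase with TTR, ALB and TF, which fall in it, and 6 of the 17 are also on the hepatocyte list. After sißCat-WT 1 rose and 6 fell, beside 5.2% and 4.97% of all genes, with a median of -0.14. The haptoglobin gene HP fell by 1.21, CP (ceruloplasmin) by 1.05, FGG by 0.67 and FGA by 0.63, both fibrinogen chains. The riser was HPX (haemopexin), by 0.60. After sißCat-mut 11 rose and 1 fell, HAMP (hepcidin) by 0.69, beside 12% and 13.6% of all genes, with a median of 0.36. Among the risers were HPX by 2.20, LBP, which binds lipopolysaccharide, by 1.57, TTR (transthyretin) by 1.45 and FGB by 1.11. After sißCat-both 13 rose and 2 fell, beside 15.5% and 18.1% of all genes, with a median of 0.58, and HAMP rose by 1.75. SAA1, a gene strongly induced in the acute phase, stood between 4.21 and 4.32 in all 4 groups and was not called. These levels are under the array medians of 4.71 to 4.78, which limits what the lack of a call can show.

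The 15 measured hepatocyte genes showed 0 higher and 7 lower after sißCat-WT, beside 5.2% and 4.97% of all genes. After sißCat-mut 13 were higher and 0 lower, beside 12% and 13.6% of all genes. After sißCat-both 13 were higher and 1 lower, beside 15.5% and 18.1% of all genes. The hepatocyte genes' mean level per array was 11.71 to 11.75 after siCtrl, 11.34 to 11.50 after sißCat-WT, 12.24 to 12.32 after sißCat-mut and 12.22 to 12.25 after sißCat-both. Among them APOA2 fell after sißCat-both, by 0.23. Of 7 measured cholangiocyte markers 1 rose and 1 fell after sißCat-WT, where 10.2% of all genes were called. After sißCat-mut 1 rose and 3 fell, beside 25.6% of all genes called, and after sißCat-both 1 rose and 4 fell, beside 33.6%. Their mean level per array was 9.25 to 9.33 after siCtrl, 9.32 to 9.38 after sißCat-WT, 9.01 to 9.17 after sißCat-mut and 8.76 to 8.86 after sißCat-both. SPP1 fell by 1.03 and 1.64 and SOX9 by 0.88 and 1.55 after sißCat-mut and sißCat-both. Of 6 measured immune markers 1 rose after sißCat-WT (10.2% of all genes called) and 1 rose and 1 fell after sißCat-mut (25.6%). After sißCat-both 2 rose and 1 fell (33.6% of all genes called), where LYZ fell by 1.13 and CD14 rose by 0.70. The part of these marker changes in the inhibitor genes' changes was not tested.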

How the data were processed

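Gene expression was measured in 12 HepG2 samples on Affymetrix arrays. The authors deposited log2 intensities for 53617 probe sets. The submitters' processing notes name RMA and Affymetrix Expression Console 1.1. The log2 scale was inferred from the values, and the genes were not centred. RMA equalises the arrays' distributions, which takes out any shift common to most genes, and it compresses changes at low levels. The annotation build is not given in the sources used here.

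Of the probe sets 16098 had 1 gene symbol in the platform table, 0 had several and 37519 were unnamed. For 779 genes with several probe sets, the one with the highest mean was used, which left 14884 genes with no filter on dim ones. Groups and replicate numbers came from the titles. A linear model with 4 group means over the 12 arrays was run with lmFit and eBayes of limma 3.58.1 under R 4.3.3 (8 residual degrees of freedom), with two-sided tests, Benjamini-Hochberg adjustment over all genes in each comparison, and calls at an adjusted p under 0.05. The code was first tested on simulated data.

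The members and the 12 gene lists, written from general knowledge, were chosen with earlier results of these data known. Lists are given by counts and medians, beside medians over all genes of 0.01 after sißCat-WT, 0.01 after sißCat-mut and -0.01 after sißCat-both. Text names the members, the 8 nearest genes in likeness to ITIH1 and ITIH3, the 6 measured genes on each side, up to 4 called members with the largest change of each list and comparison, further list members at high level, and genes with a defining role in heavy chain transfer. Others were named after their values were seen. Same-numbered arrays correlated in their deviations at 0.115, 0.155 and 0.134 for sißCat-both against sißCat-WT, so by the rule for this check they pair, from the data and not the labels. Not every pair passed 0.1 in the other comparisons. Alternatives were renewed quantile normalization, median centring, averaging probe sets per gene, dropping genes with a mean under the 40th percentile, array weights, a trended and robust prior, fitting only the groups compared, a replicate block, and each array left out. Plots used Python 3.11.15 and matplotlib 3.10.9.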

Additional observations from a re-analysis of the deposited data

How the results depend on the processing

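The changes of ITIH1 and ITIH3 moved by less than 1 SD between replicates in all 7 comparisons, under the 8 alternatives of processing and with each of the 12 arrays left out, and AMBP kept its calls in all of them. Only calls of ITIH2 moved with the processing: after sißCat-mut it lost its call with median centring (0.18), after sißCat-both it was called with median centring (-0.20), without dim genes (-0.17) and with a trended and robust prior (-0.17), and against sißCat-WT the sißCat-both level was called with renewed quantile normalization (0.18) and the trended prior (0.11). The cause was not tested. With 1 array left out, its change ranged from -0.33 to -0.25 after sißCat-WT and from 0.20 to 0.23 after sißCat-mut. For sißCat-WT against siCtrl the count over all genes, 1513, ranged from 1430 to 2087 under the alternatives of processing and from 917 to 1616 with 1 array left out, with 950 without siCtrl replicate 2, 917 without sißCat-WT replicate 2 and 957 without sißCat-WT replicate 3. The 17 calls in the 5 pathway lists together ranged from 15 to 21 under the alternatives and from 8 to 18 with 1 array left out, with 9, 11 and 10 without siCtrl replicates 1, 2 and 3 and 8 without sißCat-WT replicate 3. Hyaluronan calls after sißCat-WT were 3 and after sißCat-both 5 without dim genes, and the interleukin-6 list had 5 calls after sißCat-WT with array weights. Neighbour calls after sißCat-mut were 5 with median centring and without dim genes. With the replicate number as a block, 1669 genes were called after sißCat-WT, 4024 after sißCat-mut and 5206 after sißCat-both, no call of ITIH2 or AMBP changed, and hyaluronan calls after sißCat-mut were 8 instead of 5. In the paired comparison, sißCat-both against sißCat-WT, the block gave 5623 calls beside 5383. Signal over background could not be judged, since no detection values were used.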

Other observations

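The genes closest in profile to AMBP and ITIH2 were looked up after the values were seen. Those nearest to AMBP were COQ10B, APOE, APOA1, HAGH, CLIP1, SEPHS2, CREB3 and NAGK, at root mean square differences of 0.07 to 0.09 over 12 arrays. APOA1 and APOE encode proteins of plasma lipoproteins: APOA1 had log2 changes of 0.00, 0.69 and 0.77 after sißCat-WT, sißCat-mut and sißCat-both, and APOE had 0.17, 0.75 and 0.79. HAGH, which acts in the removal of methylglyoxal, had 0.09, 0.74 and 0.68. With renewed quantile normalization, or without siCtrl replicate 1, 4 of these 8 were shared, and without sißCat-mut replicate 1 it was 5.

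Those nearest to ITIH2 were HSBP1L1, PGM1, S100A10, IMPDH1, IDH3G, CFAP97, DHRS7B and SURF4, at 0.06 to 0.08. PGM1, an enzyme of glycogen metabolism, had -0.33, 0.12 and -0.18, and SURF4, a receptor that loads secreted proteins at the endoplasmic reticulum, had -0.19, 0.13 and -0.15. Without sißCat-WT replicate 2 or sißCat-both replicate 1 or 3, 5 of these 8 were shared.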
